A study of Homo sapiens with 32 samples.

Results

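The data described here are the gene counts of HEK293 cells at 0 min, the start of a series in which HEK293 cells (Hek293 in the labels) were incubated with 4-thiouracil for increasing times. The libraries were chosen by the time in their column headers alone, which picked 8 of the 32 libraries. The labels place them in 2 biological replicates, called culture 1 and culture 2 here, each with 2 cDNA preparations and 2 libraries per preparation, all from polyA RNA. The 4 libraries of a culture were summed, and culture 1 held 1217384 counts and culture 2 held 1022116. Single libraries held 228910 to 364696 counts. All cells were Hek293, with no other genotype or agent in the labels. The labels do not say what the 0 min cells received, whether labelled RNA was purified, or that the cultures were grown apart on different days, so the spread between cultures may be partly technical. No level was compared with a later time, and the other libraries serve only to say where a gene had no count in any of the 32. No test was run, and every value is a description with n = 2.

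HEK293 is an immortalised line made from human embryonic kidney cells transformed with adenovirus DNA. It is widely grown as a host for expressing genes, and the cell of the embryonic kidney that gave rise to it has been debated, with kidney, adrenal and neuronal origins all proposed. A dividing cell spends much of its mRNA on making proteins. Messages for ribosomal proteins and several translation factors are known to begin with a C followed by a run of C and T, the 5′ terminal oligopyrimidine motif, through which the mTOR pathway controls their translation. The extraction label cites a tagged reverse transcription method, which in general reads cDNA near its 5′ end. No source read here says whether a count then grows with transcript length. Levels of different genes are therefore given in CPM, the counts scaled to the same library total, and where genes are compared also on a length-scaled basis, as CPM per kb of transcript rescaled to the same total.

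The start-site windows below show 2 kinds of start found among the most abundant messages. Each window is 30 bases of RefSeq promoter sequence (GRCh38.p14), with 15 bases before the annotated start and the start as the 16th base, written 5′ to 3′ on the gene's strand. The part after the start is transcribed and lies in the exon that opens the transcript. Capitals mark the longest unbroken run of C and T that reaches within 5 bases of the start. The 8 windows that come first start with C followed by 4 bases that are each C or T, and the 4 after them do not. They were picked to show both kinds: of the 18 abundant genes whose windows were read, 8 had this start and 10 did not.
RPL35: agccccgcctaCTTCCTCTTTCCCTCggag
RPLP0: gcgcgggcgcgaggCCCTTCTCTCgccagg
RPS23: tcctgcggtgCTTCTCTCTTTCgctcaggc
RPL29: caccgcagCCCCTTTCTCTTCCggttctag
RPS6: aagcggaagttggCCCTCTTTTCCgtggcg
GNB2L1: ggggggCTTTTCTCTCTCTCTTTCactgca
TPT1: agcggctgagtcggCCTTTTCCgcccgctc
NPM1: cggggagcctgcgTCCTTTCCCTggtgtga
RPS29: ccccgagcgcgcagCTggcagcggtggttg
GAPDH: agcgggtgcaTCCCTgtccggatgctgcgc
ENO1: gcgggcggcgcggacagtaTCTgtgggtac
TUBA1B: cgccggccccgCCCTagtgcgttacttacc

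The windows lie at chr9:124861943-124861972 (RPL35), chr12:120201097-120201126 (RPLP0), chr5:82278340-82278369 (RPS23), chr3:51995881-51995910 (RPL29), chr9:19380222-19380251 (RPS6) and chr5:181243892-181243921 (GNB2L1, named RACK1 in RefSeq). The others lie at chr13:45341169-45341198 (TPT1), chr5:171387834-171387863 (NPM1), chr14:49598696-49598725 (RPS29), chr12:6535249-6535278 (GAPDH), chr1:8878672-8878701 (ENO1) and chr12:49131381-49131410 (TUBA1B). NPM1 and GAPDH are on the plus strand and the other genes on the minus strand.

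A start of this kind, C and then 4 bases of C or T, stood at 43 of the 63 cytosolic ribosomal protein genes with a RefSeq promoter (68.3%). It stood at 13 of 34 genes of the translation factor list (38.2%), which also holds GNB2L1, TPT1 and NACA. Among 68 genes of the nuclear-encoded respiratory chain 8 had it (11.8%). Of all 16312 matched promoters 742 had it (4.55%), and of those of detected genes 5.87%. None of 30 mitosis genes and none of 34 proteasome genes had it. Among the 100 most abundant symbols, 38 of the 81 with a promoter had it (46.9%), and with the ribosomal proteins and translation factors set aside 9 of 43 did (20.9%). The letters TATAAA, searched on the gene's strand from 40 to 16 bases before the start, were found in 35 of 61 replication-dependent histone promoters (57.4%) and in 3.50% of all matched promoters. The count of CG in the 300-base promoter, 250 of them before the start, had a median of 27 in detected genes, 7 in genes at 0 counts and 1 in olfactory receptor genes. A match is a description of these letters only.

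Counts were spread over many genes and concentrated in few. Of 32738 gene entries, 9194 had at least 3 counts in each culture (28.1%), the rule for "detected" used here, and among symbols of protein-coding genes in GENCODE 29 the share was 46.2%. The numbers of detected genes given for each class below are to be read beside this share. A gene with no count in either culture could lie at up to 1.34 CPM. That is what 3 counts over both cultures amount to, counting error only. As the 2 libraries of a cDNA are not independent counts, the true limit is higher, by an amount not estimated. The 10 most abundant symbols held 7.23% of the counts of culture 1 and 8.08% of culture 2, and the 100 most abundant held 31.2% and 33.7%. Counts reached 50% of the total within 282 symbols. At least 1000 CPM was reached by 176 symbols and at least 100 CPM by 1592. The median detected symbol lay at 21.4 CPM. On the length-scaled basis the 50 most abundant held 36.4%, against 22.8% in CPM. CPM fell with transcript length across 8949 detected symbols (Spearman's rho −0.25, across genes that are not independent). The 20% of these symbols with the shortest transcripts held 52.7% of the counts, and the 20% with the longest held 6.43%.

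Ribosomal proteins, the structural proteins of the cytosolic ribosome, took more of the library than any other class listed here. They held 18.1% of the counts in culture 1 and 20.3% in culture 2, a mean of 19.2% ± 1.52 (SD, n = 2), and 30.3% on the length-scaled basis. All 79 in the table were detected, 50 of them at 1000 CPM or more, with a median of 1620 CPM. Of the 30 most abundant symbols 18 were ribosomal proteins. RPL8 led in CPM with 11802 in culture 1 and 13474 in culture 2, and ranked 4 on the length-scaled basis. RPL35 followed with 9966 and 11426 CPM, and it ranked highest of all genes on the length-scaled basis. RPLP0, a stalk protein and a common reference gene, had 8670 and 9465 CPM. The levels within the class differed widely, although most of these proteins stand in the ribosome in single copy. Well below the median, FAU had 45.2 and 44.0 CPM, and RPL7 had 82.1 and 64.6 CPM. Most ribosomal proteins have many processed pseudogenes, to which reads can also align, and how the authors treated such reads is not stated in the labels. Across the 79 genes, the number of pseudogenes named after a gene in GENCODE 29 went with a slightly lower CPM (Spearman's rho −0.14). The median was 1953 CPM for genes with 0 to 4 such pseudogenes and 1274 CPM for those with 15 or more, and the part of pseudogenes in low values was not tested.

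Translation factors start, lengthen and end the protein chain. Their list held 2.90% ± 0.0460 of the counts (n = 2), with 41 of 42 detected. Its leading members, GNB2L1, TPT1 and NACA, are not such factors themselves but were counted in it. GNB2L1 (RACK1), a scaffold protein bound to the ribosome, had 6186 and 6521 CPM. TPT1, a translationally controlled protein, had 4458 and 5065 CPM, and NACA, a subunit of the complex that meets new chains at the ribosome, had 3866 and 4062 CPM. EEF1A1, the elongation factor that brings tRNA to the ribosome and is usually among the most abundant messages of cultured cells, had 299 counts in culture 1 and 226 in culture 2, or 233 CPM ± 17.3. EEF1A1 is the only gene of this list with 15 or more pseudogenes named after it, and their part in this value was not tested. TMSB4X, an actin-binding peptide that is also abundant in many cells, had 6 and 8 counts. These 2 genes and others below were singled out after their values were seen.

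**Figure D1:**
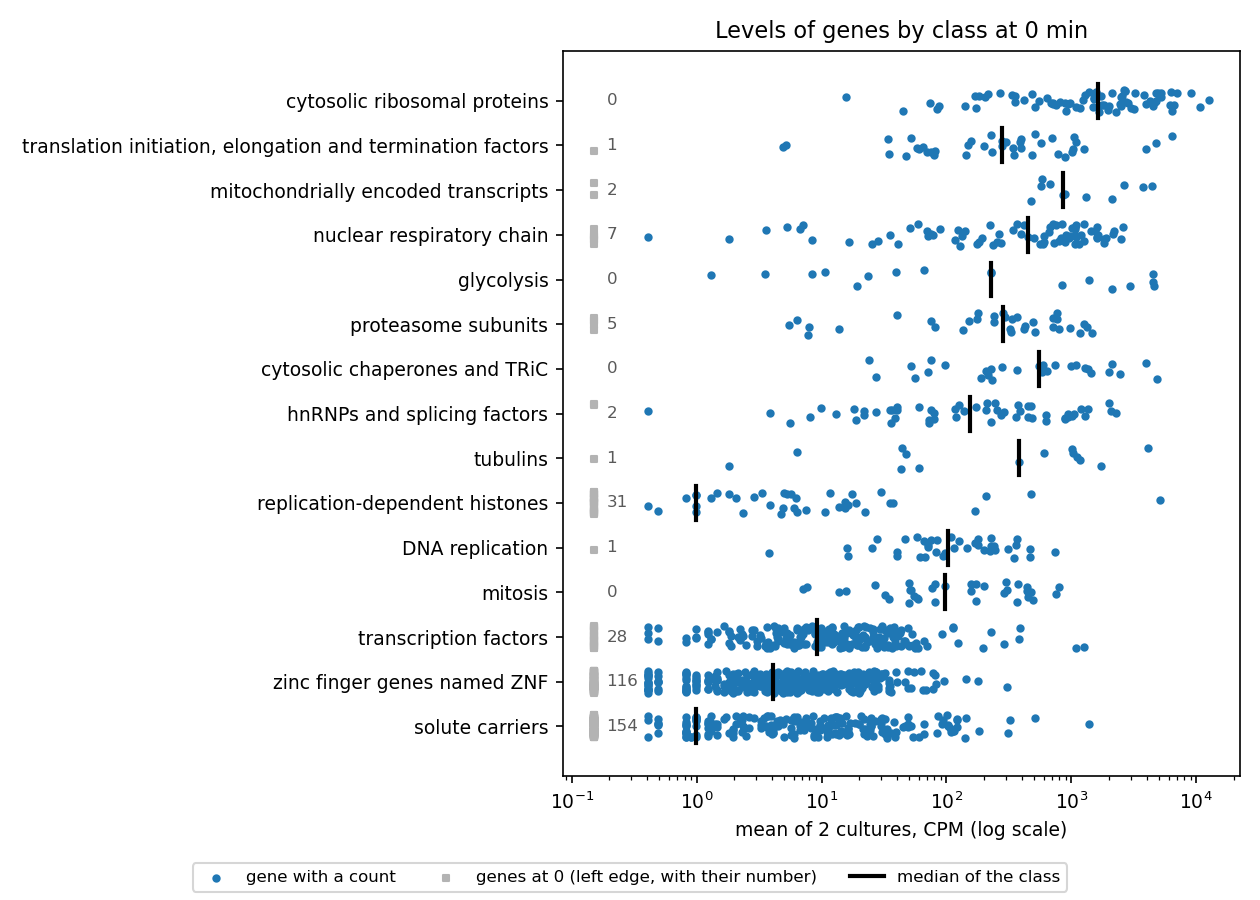
Mean level of each gene in 15 classes at 0 min, in CPM on a log axis, with 1 point per gene, a black bar at the class median, and genes at 0 as grey squares with their number. Ribosomal proteins had the highest median (1620 CPM), while transcription factors, zinc finger genes and solute carriers sat mostly under 100 CPM.

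Energy genes came next. The nuclear-encoded respiratory chain, including the ATP synthase, held 5.46% and 5.76% of the counts, with 78 of 87 genes detected. ATP5E, a small ATP synthase subunit, had 2473 and 2664 CPM, CYCS, which is cytochrome c, had 2492 and 2509 CPM, and ATP5B, the catalytic ATP synthase subunit, had 2104 and 2263 CPM. All 7 genes at 0 in this class, COX6B2, COX6A2, COX8C, COX7A1, COX4I2, COX7B2 and ATP5L2, were also at 0 in all 32 libraries. Most of them are tissue-restricted forms of the subunits. Mitochondrially encoded transcripts held 1.83% ± 0.0495 of the counts (n = 2), led by MT-ND3, a complex I subunit, with 4350 and 4563 CPM. MT-ND1 had 3663 and 3833 CPM and MT-ND4L 2735 and 2552 CPM. MT-CYB and MT-ND6, subunits of complexes III and I, were listed at 0 here and in all 32 libraries. Every mitochondrial DNA codes for both, so a 0 in these counts does not show that a gene is not expressed.

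Glycolysis, the path from glucose to pyruvate and lactate, held 2.04% and 2.24% of the counts. LDHB, the lactate dehydrogenase subunit typical of heart, had 4198 and 4974 CPM, and LDHA, the subunit typical of muscle and of glycolytic cells, had 2034 and 2168 CPM. The order of this pair was the same on the length-scaled basis, with LDHB at 4095 ± 375 and LDHA at 1388 ± 23.4 (n = 2). GAPDH had 4138 and 4844 CPM and ENO1, enolase, 4303 and 4627 CPM. The citric acid cycle was fully detected, all 19 genes, and held 0.368%, led by MDH2 (788 CPM), MDH1 (631 CPM) and IDH3G (392 CPM).

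Protein folding and turnover also took large shares. Cytosolic chaperones and the TRiC chaperonin held 2.68% ± 0.0109 (n = 2), with all 29 genes detected. From only cDNA preparation 1 or 2 the share was 2.65% or 2.72%, further apart than this SD. PPIA, a prolyl isomerase, had 4446 and 5192 CPM, HSP90AA1, the inducible HSP90, had 4294 and 3659 CPM, and HSPA8, the constitutive HSP70, had 2497 and 2392 CPM. Proteasome subunits held 1.51% ± 0.0119, with 33 of 39 detected, led by PSMA4 (1462 CPM), PSMB5 (1343 CPM) and PSMB1 (1251 CPM). Their share was 1.55% or 1.46% from only cDNA preparation 1 or 2. PSMB8 and PSMB11, subunits of the immune and thymus forms, and PSMA8, of the testis form, were at 0. PSMA6, a subunit of every proteasome, was also listed at 0. Antioxidant enzymes held 1.34%, led by PRDX1 (3001 CPM), TXN (2847 CPM) and SOD1 (2321 CPM).

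RNA and chromatin classes ranged from uniform to very uneven. Splicing factors and hnRNPs, which bind and process nascent transcripts, held 2.34% ± 0.0305, led by SNRPG (2294 CPM), SNRPD2 (2066 CPM) and HNRNPA2B1 (1998 CPM). Nucleolar proteins held 1.34%, and NPM1 alone had 5297 and 5610 CPM. Of 71 replication-dependent histone genes 25 were detected, and HIST1H4C, a histone H4 gene, took 4708 and 5473 CPM, far above HIST1H2BK with 473 CPM and HIST1H1C with 207 CPM. Most of these messages end in a stem-loop instead of a polyA tail, and the labels name polyA RNA as the molecule. The replacement histones, which are made with a polyA tail, were listed together with HMG proteins, and 17 of 17 genes were detected. H2AFZ had 3203 CPM, H3F3B 2081 CPM and H3F3A 1976 CPM.

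Proliferation genes were broadly present. All 35 mitosis genes were detected, against 46.2% of protein-coding symbols. They held 0.720%, with CKS2 at 799 CPM, KPNA2 at 755 CPM and CKS1B at 490 CPM. Of 40 DNA replication genes 38 were detected, with MCM7, a subunit of the replicative helicase, at 743 CPM, TK1 at 469 CPM and PCNA, the sliding clamp, at 464 CPM. POLD1, the catalytic subunit of DNA polymerase delta, was listed at 0. Tubulins held 1.14%, and TUBA1B had 4101 and 4148 CPM, while TUBB3, the form used as a neuronal marker, was listed at 0 in all 32 libraries. Among actin genes ACTG1 had 3426 and 2954 CPM and ACTB 1553 and 1388 CPM. Together 27 functional classes of 1723 symbols held 53.0% ± 1.84 of the counts (n = 2).

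**Figure D2:**
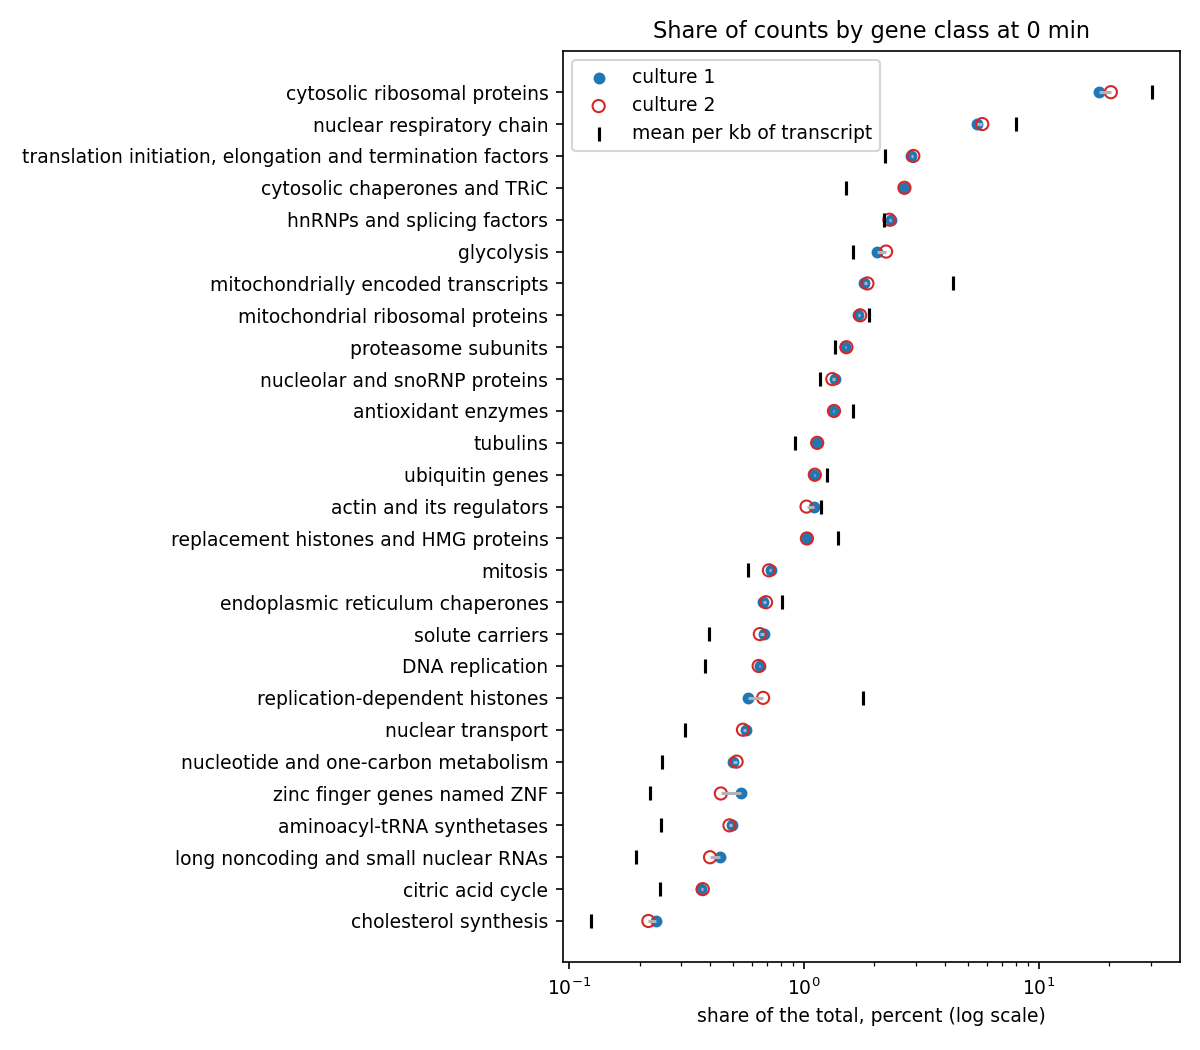
Share of the total by gene class at 0 min, in percent on a log axis, for culture 1 (filled), culture 2 (open) and the mean per kb of transcript (vertical tick). Ribosomal proteins held 18.1% and 20.3%, and classes of short transcripts such as ribosomal proteins and histones lie further right per kb.

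The transcription factors listed here were mostly present at modest levels. Of the 237 measured, 164 were detected (69.2%), against 46.2% of protein-coding symbols. Zinc finger genes named ZNF were a list of their own, with 249 of 509 detected (48.9%) and a median of 4.11 CPM. The share of the 237 is therefore that of a chosen list and not of transcription factors at large. The median over all 237, those at 0 included, was 9.25 CPM, against 2.78 CPM over all protein-coding symbols. The most abundant of the 237 were BTF3 (1251 CPM), a subunit of the nascent chain complex also counted among translation factors, and SUB1 (1089 CPM). Also high were ATF4 (387 CPM), an activator of the amino acid response, ID2 (383 CPM), an inhibitor of bHLH factors, and SOX4 (286 CPM). CEBPZ, HES1, ID3, RBPJ and MLX followed with 227, 197, 123, 113 and 112 CPM. Below them MAZ had 92.9 CPM, DDIT3 69.3 CPM, SMAD5 59.1 CPM and NFIA 57.1 CPM. Also among the 20 leading factors were YY1 (56.3 CPM), HSF2 (54.3 CPM), KLF6 (53.4 CPM), ATF6 (50.3 CPM) and FOXC1 (49.5 CPM). Of long noncoding RNAs, MALAT1, a nuclear speckle RNA, had 3547 and 3088 CPM, SNHG15 254 and 294 CPM, RMRP, the RNA of RNase MRP, 136 and 141 CPM, and NEAT1, the paraspeckle RNA, 76.4 and 73.4 CPM.

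Reference genes of expression assays were detected in full (16 of 16), all at 20 CPM or more, but spanned a wide range. Not all of them are named here, and the named ones do not reach its low end. RPLP0 lay at 9067 CPM, PPIA at 4819, GAPDH at 4491, ACTB at 1471, PPIB at 1236, B2M at 858, PGK1 at 834 and YWHAZ at 750 CPM. HPRT1 had 372 CPM and TFRC 174 CPM.

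Genes of the kidney, adrenal and neuronal lineages bear on the origins proposed for the line. The share of measured genes detected was 13 of 85 for the kidney lists (15.3%), 9 of 46 for the adrenal lists (19.6%) and 36 of 104 for the neuronal lists (34.6%), each below the 46.2% of protein-coding symbols. Of the same lists 55, 32 and 48 genes were at 0 in both cultures, against 37.2% of protein-coding symbols. At least 20 CPM was reached by 4, 2 and 14 genes, against 24.6% of protein-coding symbols. The lists differ in how specific their genes are, so their shares give no order of the lineages.

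Of the 13 detected kidney genes, 7 were among the 22 of the nephron progenitor and ureteric bud list and 6 among the 63 of the mature kidney lists. The embryonic list held the 2 highest levels, and 10 of its genes were at 0. CITED1, a marker of nephron progenitors, had 95.3 and 71.4 CPM. HOXD11, a patterning gene of the metanephros, had 74.8 and 50.9 CPM. WT1 had 12 counts in culture 1 and 3 in culture 2, and SIX2 had 11 and 0 counts. PAX2 and PAX8, central regulators of the renal epithelium, were listed at 0. EYA1, OSR1, GDNF, MEOX1 and RET were at 0 as well. CD2AP, a scaffold of the podocyte slit diaphragm found in many cells, had 37.0 and 24.5 CPM, and was the only one of 63 mature kidney genes at 20 CPM or more. NPHS1, a slit diaphragm protein, was at 0. No proximal tubule gene was detected, and CUBN, SLC34A1, SLC5A1, SLC22A6, SLC22A8, AQP1, GGT1 and ANPEP were at 0. Loop and distal tubule genes reached at most 7.53 CPM (POU3F3), with UMOD, SLC12A1 and CLDN16 at 0, and collecting duct genes at most 5.57 CPM (GATA3), with AQP2, AVPR2 and SCNN1A at 0.

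Adrenal genes were carried by AKR1B1, an aldose reductase present in many tissues besides the adrenal cortex, with 811 and 806 CPM. The next adrenal cortex gene, SCARB1, a receptor for high-density lipoprotein, had 21.4 and 18.6 CPM. NR5A1, the factor that directs steroid cell identity, was listed at 0, as were NR0B1, STAR, CYP11A1, CYP11B1, CYP11B2, CYP21A2 and HSD3B1. In the adrenal medulla list SCG3, a secretory granule protein, had 21.4 and 19.6 CPM. TH and DBH, which make catecholamines, and PNMT, DDC, CHGA, SCG2, SLC18A1 and SLC18A2 were at 0.

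The neuronal lists, neural progenitors included, summed over 104 genes to 1923 CPM in culture 1 and 1859 in culture 2. The kidney lists summed over 85 genes to 349 and 236 CPM, and the adrenal lists over 46 genes to 911 and 886 CPM, so the groups differ in size. UCHL1, a ubiquitin hydrolase abundant in neurons, had 389 and 434 CPM. BEX2 had 131 and 135 CPM, MLLT11 64.0 CPM, MARCKSL1 56.2 CPM and RBFOX2, a splicing regulator, 42.5 CPM. NCAM1, a cell adhesion protein, had 37.0 and 19.6 CPM, MAP1B 16.4 and 31.3 CPM and BASP1 26.3 and 15.7 CPM. NEFH, INA, TUBB3, MAP2, DCX, DCLK1, STMN2 and STMN4 were at 0. Enzymes, transporters and receptors of neurotransmitters were nearly empty, with GAD1 the highest at 5.81 CPM and 19 of 24 at 0. In the neural progenitor list VIM, an intermediate filament of many cell types, had 340 and 274 CPM, SOX4 308 and 264 CPM, HES1 175 and 219 CPM, MSI2 47.1 CPM, PAX6 26.9 CPM and DACH1 22.7 CPM. PAX6 differed between cultures, with 56 and 8 counts, so its level rests mainly on culture 1. Of the 31 neural progenitor genes 12 were detected (38.7%) and 12 were at 0, SOX1, SOX3 and FABP7 among them. SOX2 had 3.68 CPM.

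**Figure D3:**
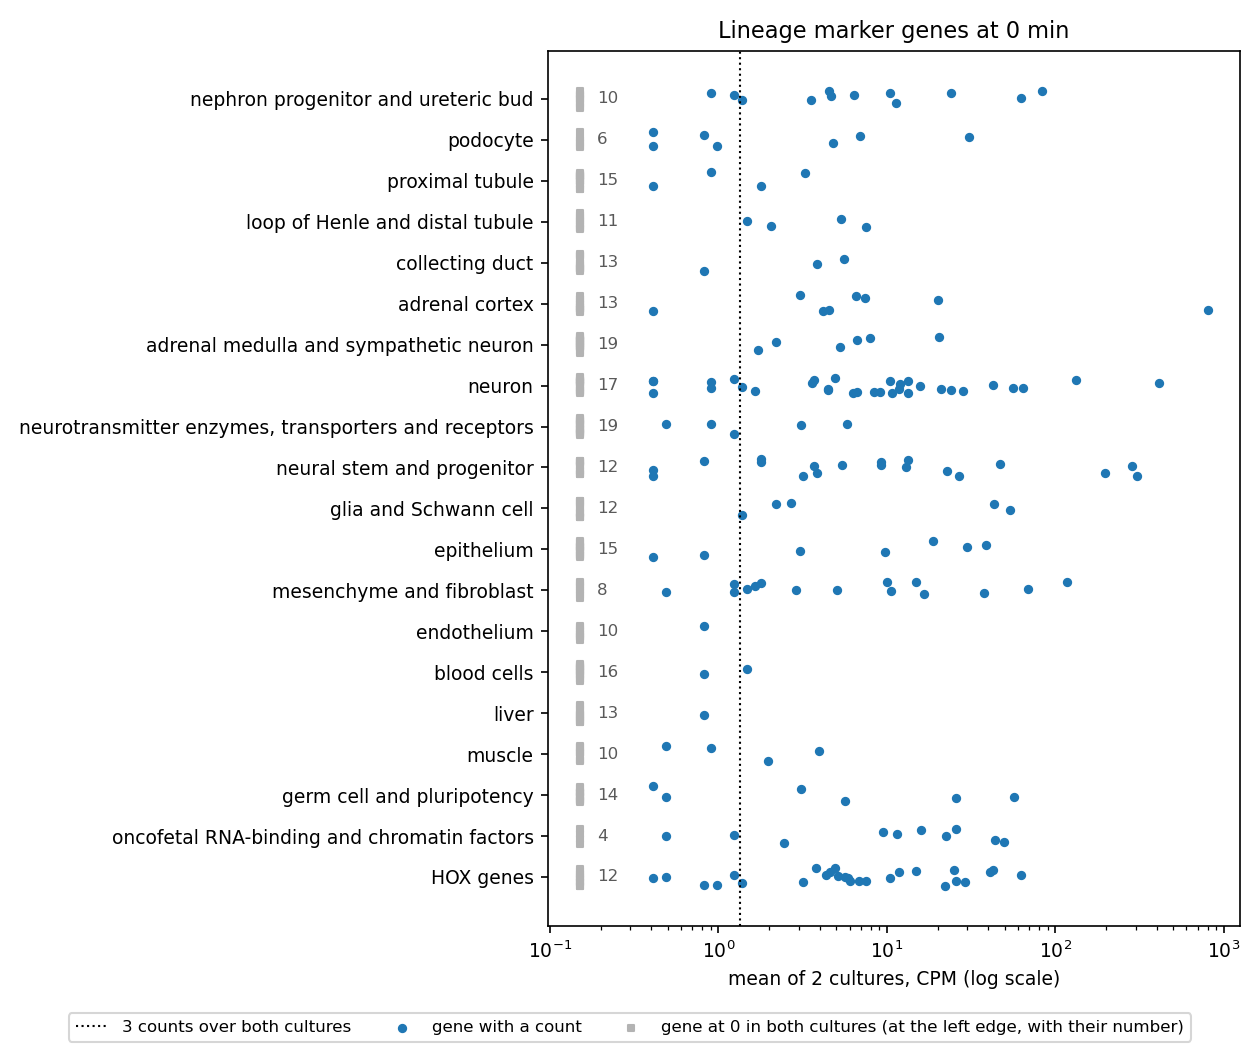
Mean level of lineage genes at 0 min, in CPM on a log axis, with 1 point per gene, genes at 0 as grey squares with their number, and the dotted line at 3 counts over both cultures (1.34 CPM). UCHL1 led the neuron list with 411 CPM, AKR1B1 stood alone in the adrenal cortex list, and endothelium, blood and liver genes sat near the line or at 0.

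Other cell types served as a comparison. Of 74 genes of glia, endothelium, blood, liver and muscle 4 were detected, 2 of them above 20 CPM, SLC1A3 (54.0 CPM), a glutamate transporter, and CNP (43.0 CPM), an enzyme of myelin. Of 22 epithelial genes 4 were detected (18.2%) and 15 were at 0. CDH1, CDH3, KRT5, KRT7, KRT14, KRT19, CLDN3 and CLDN4 were at 0. DSP, a desmosome protein, had 38.9 CPM, TJP1, a tight junction protein, 30.1 CPM, and the keratin KRT8 18.9 CPM. In the mesenchymal list SPARC, a matrix protein, had 150 and 86.1 CPM, CDH2, N-cadherin, 82.1 and 55.8 CPM, and ZEB1, a repressor of epithelial genes, 55.9 and 19.6 CPM. These were its only genes at 20 CPM or more. Of the 23 on that list 8 were detected (34.8%) and 8 were at 0, POSTN and PDGFRB among them. PRAME, a tumour antigen normally confined to testis, had 57.1 CPM, and the oncofetal RNA-binding genes IGF2BP1, IGF2BP3, LIN28B and IGF2BP2 had 49.7, 44.0, 25.7 and 22.4 CPM. The value of IGF2BP2 rests mainly on culture 1, with 37.0 and 7.83 CPM. Of the 20 genes of the germ cell and pluripotency list, which holds PRAME, 4 were detected (20%). On that list 14 were at 0, NANOG and ZFP42 among them. Of 14 oncofetal genes measured 7 were detected (50%), near the share of protein-coding symbols, and 4 were at 0. HOX genes, which mark position along the body axis, were detected in 7 of 11 HOXA, 3 of 10 HOXB, 3 of 9 HOXC and 5 of 9 HOXD genes. Over the 39 HOX genes the share was 46.2%, equal to that of protein-coding symbols. None of 379 olfactory receptor genes was detected, and 1 count fell on the whole family. Of 136 keratin-associated protein and defensin genes 1 was detected, KRTAP19-1, with 30.4 and 47.9 CPM and 12 to 37 counts in each of the 4 cDNA preparations. It codes for a hair protein, and the source of its counts was not tested.

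The 2 cultures gave similar levels. Over 13514 symbols with a count, log2(CPM + 1) of the cultures correlated with r = 0.906 (Spearman's rho 0.890), and over the 4768 symbols of at least 20 CPM r was 0.959. Within a culture, the cDNA preparations correlated with r = 0.855 in culture 1 and 0.839 in culture 2. These correlations run across genes of libraries with different depths, and genes are not independent replicates. Of the 4768 symbols 233 were over 2-fold apart (4.89%), 57 higher in culture 2 and 176 higher in culture 1. With TMM scaling the split was 81 against 145 and with RLE size factors 81 against 146. Nearly all of these genes were low: 231 of 3176 symbols between 20 and 100 CPM, 2 of 1416 between 100 and 1000 CPM, and none of the 176 above. The pair above 100 CPM were RBM22, a splicing factor, with 180 CPM in culture 1 and 81.2 in culture 2, and ACSL4, a fatty acid ligase, with 219 and 102 CPM. LYPLA1, PPAT, HNRNPK and ZC3H13 came next, each 1.86- to 1.93-fold higher in culture 1. In the other direction C12orf10 had 117 and 198 CPM, FIS1, a mitochondrial fission protein, 237 and 359 CPM, and SRPR, SLTM, POP4 and ARL3 were 1.48- to 1.55-fold higher in culture 2. In some of these genes the cDNA preparations of a single culture differed as well. In culture 2 PPAT had 31.9 and 129 CPM and SLTM 83.3 and 192 CPM in preparations 1 and 2.

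**Figure D4:**
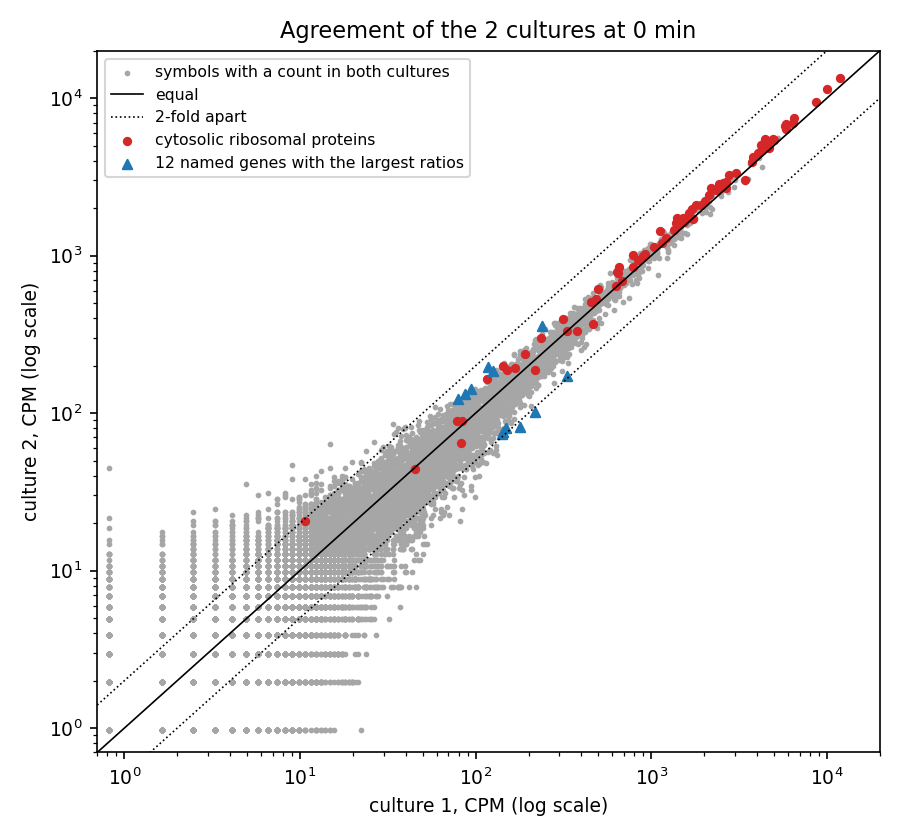
CPM of culture 1 against culture 2 on log axes, with 1 point per symbol that had a count in both cultures, the solid line where they are equal and dotted lines at 2-fold. Points close in on the line above 100 CPM, and ribosomal proteins (red) lie slightly above it, 70 of 78 at 20 CPM or more being higher in culture 2, against 39.8% of all symbols at that level (49.1% with TMM scaling).

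The libraries of a single cDNA differed by less than sampling noise. Their chi-square per degree of freedom was 0.333 to 0.412 in 4 pairs, against 1.64 to 2.29 between cDNA preparations of the same culture (8 pairs) and 1.56 to 2.47 between cultures (16 pairs). The paired libraries were therefore added up within the culture sum and not treated as separate samples. Their counts are not independent, so intervals based on the summed counts are too narrow and the sums overstate the independent observations. The variation beyond counting error in symbols of 20 CPM or more was 19.6% between cultures, 25.4% between the cDNA preparations of culture 1 and 30.0% between those of culture 2. The cDNA values alone would give 19.6% between the culture sums, the same as the value found. At 1000 CPM or more the value found was 7.02% and that from the cDNA values 6.62%. The expected values rest on 1 pair of preparations per culture and have no spread. Whether the cultures vary beyond their cDNA preparations was therefore not tested. Each preparation has a tagmentation number of its own in the labels and in the header, so the 2 steps cannot be told apart. With 1 library per cDNA the value between cultures was 16.6%. It fell with level, from 22.7% between 20 and 100 CPM to 11.8% between 100 and 1000 CPM and 7.02% above.

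**Figure D5:**
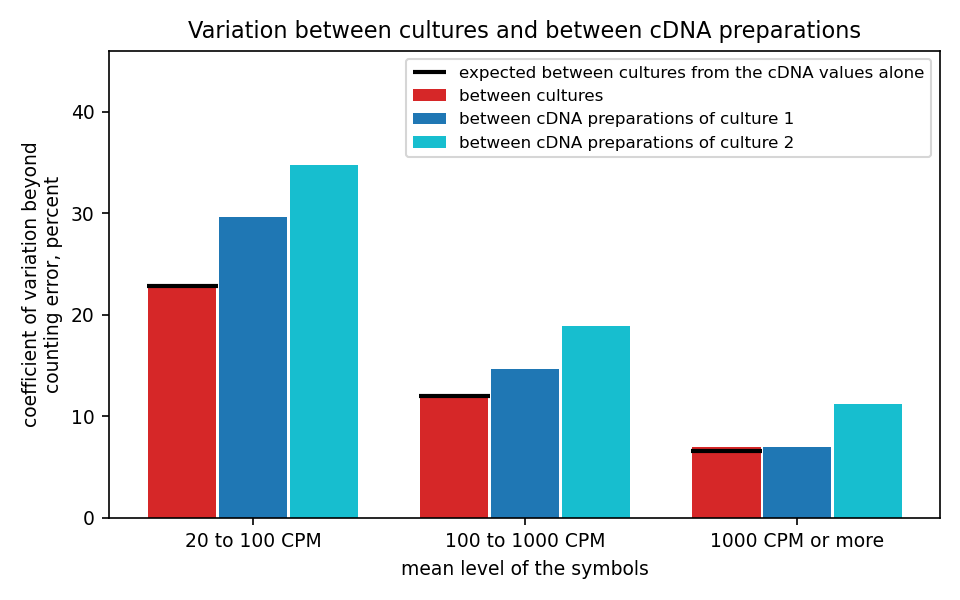
Coefficient of variation beyond counting error, in percent, by mean level of the symbols, between cultures (red) and between the cDNA preparations of each culture (blue and cyan), with black lines at the value expected between cultures from the cDNA values alone. The red bars end close to those lines at every level, 22.7% against 22.8% in the lowest.

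The difference between cultures followed transcript length. The median log2 ratio of culture 2 to culture 1 was 0.05 in the 20% of symbols with the shortest transcripts and −0.20 in the 20% with the longest, where 31.3% of symbols were higher in culture 2. Of all 4768 symbols 39.8% were higher in culture 2, with a median log2 ratio of −0.10. With TMM or RLE scaling 49.1% were higher and the median was close to 0 (−0.0070 and −0.0073). Such scaling multiplies all genes of a culture alike, so it shifts the medians by length together and leaves their differences. One cDNA preparation stood apart. Preparation 1 of culture 2 held 56.6% of its counts in the 20% of detected symbols with the shortest transcripts, against 51.9% to 53.0% in the other preparations, and 21.2% in ribosomal proteins, against 17.6%, 18.9% and 19.1%. Its part in the length pattern was not tested. Without it the cytosolic ribosomal protein share was 18.6%, 13 detected kidney genes became 7, and 452 symbols were over 2-fold apart, at fewer counts in culture 2.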

How the data were processed

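RNA-seq libraries of HEK293 cells at 0 min were analysed. The deposited file is a single matrix of whole-number counts per gene entry. STAR alignment to hg19 is recorded per the submitters' processing notes. The STAR version, the counting strand and any use of molecular identifiers are not given there. Barcodes tied columns to samples, and the 4 libraries of a culture were summed. Repeated symbols were added up, and CPM was computed from total counts. For 4 libraries of culture 2 the tagmentation number in the header is not that of the label, which leaves the sums as they are. Detected means at least 3 counts in each culture. No test was run. TMM and RLE factors came from edgeR 4.0.16, and other steps ran in Python 3.11.15. On simulated data, a variation of 20% was recovered as 19.6% over 4768 genes. The simulated counts were drawn independently, unlike those of libraries that share a cDNA, so the measure was not checked for that case.

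Transcript lengths are those of the APPRIS principal transcript in GENCODE 29 (GRCh38). The median over a gene's transcripts was computed before it and was replaced after its results had been seen, because it gave MALAT1 and TUBA1B lengths far below their full transcripts. With the principal transcript RPS23 had 3437 bases and TPT1 4735. They ranked 72 and 156 on that basis, against 4 and 18 in CPM. Which length suits these counts was not tested. The longest transcript was tried as well, and all 3 are compared in the closing section. Of 32643 symbols 21820 had a length, with 99.3% of the counts.

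Genes were named by rule: from the 30 most abundant, the leading members of each functional list, lineage members of at least 20 CPM or at 0, the 20 leading transcription factors, and the 6 genes furthest apart between cultures in each direction. Any other gene named was picked with its value known. The members and lists were chosen with earlier results of these data known, and 11 further lists were added once the values had been seen. Listed genes without an entry, 19 in all, were not analysed here. Some named genes that the rule would give are not reported here.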

Additional observations from a re-analysis of the deposited data

How the results depend on the processing

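Precision is limited by 1022116 to 1217384 counts per culture, n = 2, and cDNA counted in 2 libraries. Chosen after seeing the data were the settings without cDNA preparation 1 of culture 2, with 1 library per cDNA and with the longest transcript, and also the principal transcript itself, which replaced the median computed before it. The ribosomal protein share was 30.3% per kb of the principal transcript, 22.8% per kb of the longest and 27.3% per kb of the median transcript. The 50 most abundant held 36.4%, 34.1% and 32.3% on these scales. Of the 30 most abundant by CPM, 20 stayed among the 30 highest per kb with the principal transcript, 17 with the longest and 24 with the median, so which genes lead depends on the length used. The cultures' r was 0.760 with a pseudocount of 0.1, 0.968 with 10, 0.959 at 20 CPM or more and 0.879 without cDNA preparation 1 of culture 2, and the rank correlation was 0.890. Symbols over 2-fold apart numbered 2 at 100 CPM or more, 5214 with no minimum, 669 and 753 from only cDNA preparation 1 or 2, and 452 without cDNA preparation 1 of culture 2. These last 3 settings hold fewer counts. With at least 10 counts per culture, 6 kidney, 3 adrenal and 20 neuronal genes were detected, and without cDNA preparation 1 of culture 2 the kidney genes numbered 7.

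Leaving out 1 culture gave 10042 to 10614 detected entries, ribosomal shares of 18.1% to 20.3%, top-50 shares of 21.8% to 23.8%, and 14 to 19 kidney, 9 to 13 adrenal and 37 to 42 neuronal genes. Of the 28 other class shares, all moved by more than the spread between cultures per kb of the principal transcript, 27 with the longest and 25 with the median, and 15 of 27 did without mitochondrially encoded transcripts. With only cDNA preparation 1 or 2, 9 and 12 of the 28 did, so an SD of 2 culture sums can understate the spread. No paired analysis was possible because these values come from no test and a single time has no group to pair.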

Other observations

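Some further gene groups, from lists added after the values were seen, are given as values, against 46.2% of protein-coding symbols detected and 37.2% at 0. Cyclins and their kinases were broadly detected (25 of 29), with CDK1 at 306 CPM, CCNB1 at 290 CPM and the cell cycle inhibitor CDKN2A at 135 and 144 CPM. Growth factor receptors were detected in 26 of 42 genes but at low levels, with IGF1R, the insulin-like growth factor receptor, at 34.5 and 36.2 CPM and EPHA4 at 29.6 and 25.4 CPM. Of the BCL2 family PMAIP1, a promoter of apoptosis, had 186 and 223 CPM and MCL1, an inhibitor of it, 40.3 and 24.5 CPM. BCL2L1 was listed at 0. Wnt, Notch and Hedgehog genes were detected in 22 of 36, led by HES1 (197 CPM) and RBPJ (113 CPM).

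Channels and receptors for which HEK293 cells often serve as a host were sparse. Of 60 voltage-gated sodium, calcium and potassium channel genes 2 were detected (3.33%), among them KCNQ5 with 9.86 and 3.91 CPM, and 43 were at 0 (71.7%). Of 91 G protein-coupled receptor genes 6 were detected (6.59%) and 66 were at 0 (72.5%), with ADORA2B, an adenosine receptor, highest at 18.9 and 25.4 CPM. The G proteins they act through were detected in 16 of 28 genes, with GNG5 at 604 CPM, GNAI3 at 169 CPM and GNAS at 137 CPM.

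Of 30 genes of nucleic acid sensing and the interferon response 11 were detected and 11 were at 0 (36.7% each), the second close to the share of protein-coding symbols at 0. The interferon receptor IFNAR1 had 85.4 and 82.2 CPM and ADAR, an RNA editing enzyme, 69.8 and 70.4 CPM, while TLR7, TLR8, TLR9, IFIH1, IFNB1 and MX1 were at 0. In antigen presentation B2M had 858 CPM and HLA-DPA1, a class II gene, 22.2 and 43.0 CPM, with CD74 at 0.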
